A study of Mus musculus with 6 samples.

Results

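The genes described here are the Myc network, a set of transcription factors that pair with Max or with its relative Mlx, together with Pvt1, the long noncoding RNA gene next to Myc. The 10 genes (Myc, Mycn, Mycl, Max, Mxi1, Mxd1, Mxd4, Mnt, Mlx and Pvt1) were taken by name from an expression table of 40840 genes, and each was found there. Of these, 9 reached a mean of at least 1 TPM (a level scaled to a fixed total per library and corrected for transcript length) and entered the test with 11643 genes in all. Mycn did not reach it and is given by its values.

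RNA-seq was performed on colonic organoids, 3-dimensional cultures of colon epithelium, from mice that had gone through colitis induced by dextran sodium sulfate (DSS) and from control mice. The DSS group was 3 wt C57BL/6 mice that drank 2.5% DSS for 5 days from 10 weeks of age and, after an interval of 2 weeks, for another 5 days, with organoids set up on day 14 after DSS. The control group was 3 wt C57BL/6 mice without DSS, whose age was not listed. All RNA was collected on day 4 of culture, and 1 library came from each mouse. The medium given for wt organoids in the study's methods holds L-WRN conditioned medium, a source of Wnt ligand. The values therefore describe the epithelium after removal from the colon and in a medium that itself feeds the Wnt pathway upstream of Myc.

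Myc binds DNA as a dimer with Max at the E-box, a short palindromic sequence, and raises transcription of genes for ribosome building, metabolism and the cell cycle. Mxi1, Mxd1, Mxd4 and Mnt also pair with Max, bind the same sequence and recruit Sin3 corepressors, so they compete with Myc. In the colon, Myc is a classic target of Wnt signalling in the crypt base, and Mxd1 is known to be made as the cells differentiate towards the surface. Pvt1 is transcribed in the same direction as Myc from a neighbouring promoter and is known in mouse and human tumours as a gene amplified together with Myc.

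Between 11328 and 11607 genes reached 1 TPM per library, at a depth that TPM does not keep. DSS and control libraries were separated along the first principal component (55.6% of the variance), and DSS replicate 1 stood apart from the other DSS libraries along the second (25.2%). Summed TPM of 10 epithelial markers was 14127 to 20320 in DSS organoids and 18199 to 19629 in control organoids. Markers of lymphoid cells, stroma, endothelium and glia each summed to less than 3 TPM per list in any library. Markers of myeloid cells summed to 226 to 371 TPM in DSS organoids and 68.1 to 88.5 TPM in control organoids. Of the 16 written, 10 reached the filter, several of them only through the DSS libraries. Of these 10, 5 passed the test given below as higher in DSS, Fcer1g and Laptm5 among them, where 6.45% of all tested genes did. Of the 10 fold changes, 9 were positive and 1 was negative. The negative one was Mrc1, a macrophage gene, with 0.16, 1.27 and 1.22 TPM in DSS organoids, against 3.13, 2.62 and 3.45 TPM in control organoids. Cd14 overlapped, at 86.8, 72.6 and 54.3 TPM in DSS organoids and 52.6, 50.7 and 69.8 TPM in control organoids. Lyz2, a lysozyme gene of macrophages, had 145, 227 and 123 TPM in DSS organoids, against 5.19, 2.04 and 1.09 TPM in control organoids, and the adaptor gene Tyrobp had 5.24 to 14.6 TPM in DSS organoids while all control libraries listed it at 0. The part of these myeloid transcripts in the values of the Myc network was not tested. In bulk RNA, a gene that is lower in DSS may be made by fewer cells or at less RNA per cell, and these cannot be told apart.

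The E-box that the network reads, CACGTG (the same on both strands), was looked for in the RefSeq promoters (GRCm38.p6) of the members, from 250 bases before to 50 bases after the start. Promoters of 8 members were matched, and 4 of them, Max, Mxd4, Mnt and Mlx, held the sequence. Myc and Pvt1 had no matched promoter, so theirs were not searched. Over all tested genes with a promoter, 12.1% held it. The windows are shown because they are the sites by which the network could bind its own genes, with the E-box in capitals and 15 bases on either side. They lie at chr12:76962231-76962266 on the minus strand for Max, chr5:34187909-34187944 on the minus strand for Mxd4, chr11:74830786-74830821 on the plus strand for Mnt and chr11:101087235-101087270 on the plus strand for Mlx.
Max: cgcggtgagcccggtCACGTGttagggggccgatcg
Mxd4: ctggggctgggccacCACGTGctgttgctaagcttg
Mnt: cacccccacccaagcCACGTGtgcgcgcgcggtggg
Mlx: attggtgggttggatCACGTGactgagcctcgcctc
These letters are a description and not measured binding. The 4 genes that hold them include none that passed the test between DSS and control organoids, as given below for each. The promoter windows of Mycn, Mycl, Mxi1 and Mxd1 did not hold the sequence.

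Between DSS and control organoids, members of the network differed in both directions. Myc and Pvt1 were lower in DSS, whereas Mxi1, a repressor, and Mycl, a relative of Myc, were higher. Thus 4 of the 9 tested members passed the threshold (limma, Benjamini-Hochberg adjusted p below 0.05 over all tested genes), 2 in each direction, where 10.3% of all tested genes passed, 6.45% higher and 3.89% lower in DSS. Of all calls, 62.4% were higher in DSS, against 51.4% with median-ratio scaling and 48.2% with quantile normalization, and the 4 members passed in the same direction under both. The groups did not overlap for 6 of the 9, which also includes Max and Mnt, where 36.4% of all tested genes showed no overlap. The median log2 fold change over all tested genes was 0.05. All fold changes are DSS over control on the log2(TPM + 1) scale, which understates the change of genes with low TPM.

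**Figure D1:**
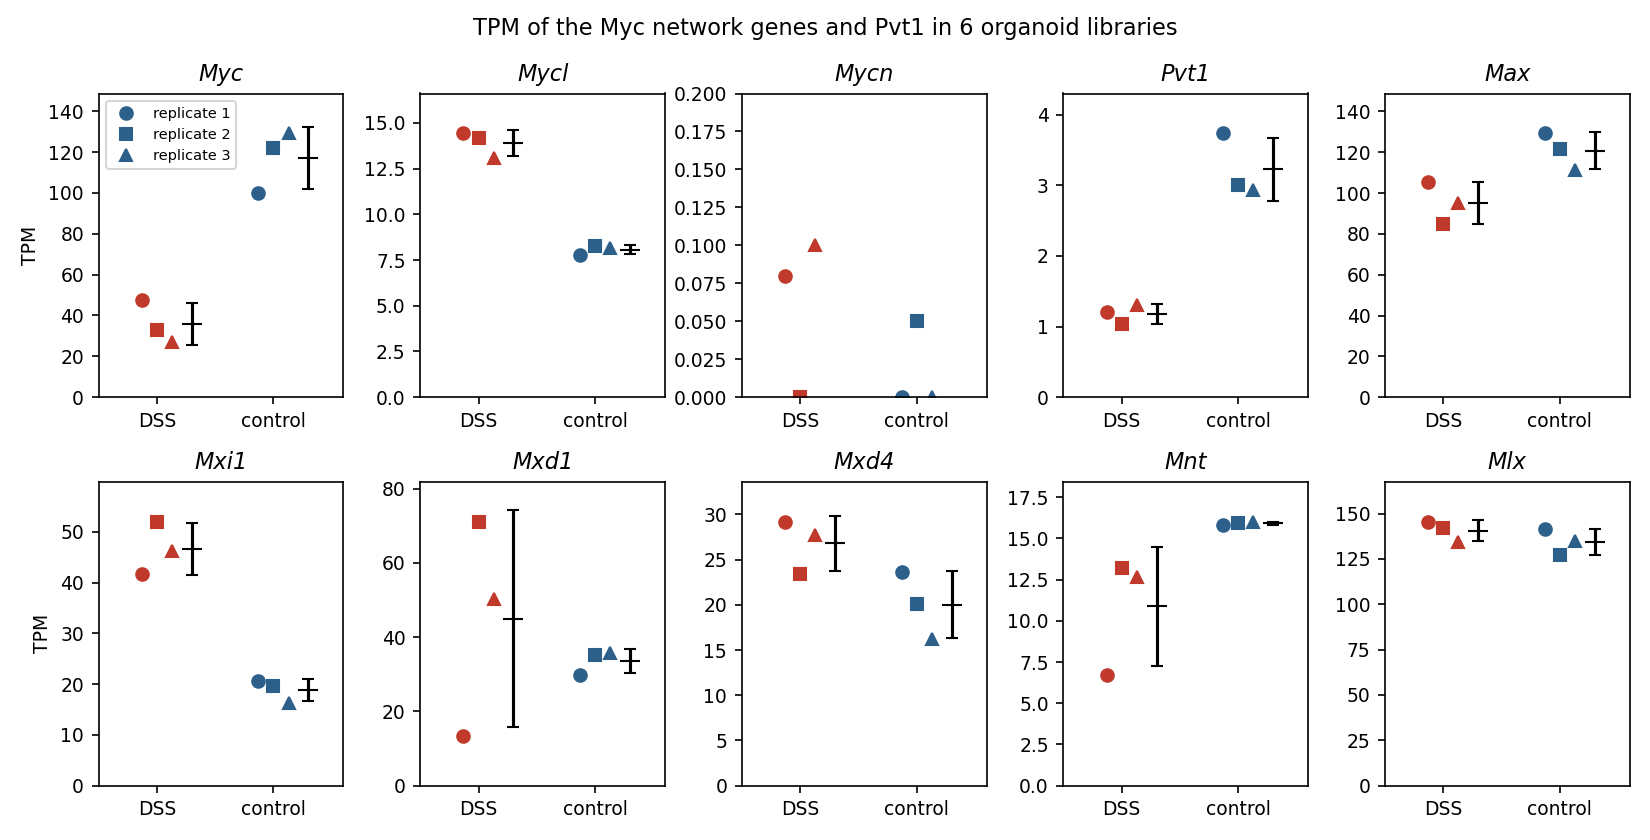
TPM of the 10 members in each organoid library, with DSS libraries on the left of each panel and control libraries on the right, marker shapes for the replicate number, and a bar for mean and SD over 3 mice. Mycn, at or below 0.10 TPM throughout, is drawn without a mean, and the DSS and control points of Myc, Mycl, Pvt1, Max, Mxi1 and Mnt do not overlap.

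Myc itself had 47.4, 33.1 and 27.1 TPM in DSS organoids, against 99.9, 122 and 129 TPM in control organoids. The highest DSS library was thus below the lowest control library by more than the spread within either group. The means were 35.9 ± 10.4 TPM in DSS and 117 ± 15.4 TPM in control organoids (SD, n = 3 each). The log2 fold change was -1.71 (SE 0.21, limma adjusted p = 0.0112, 95% interval -2.22 to -1.2). Its size stayed between -1.92 and -1.53 over 11 alternative settings, and the adjusted p was above 0.05 in 2 of them, at 0.0684 without control replicate 2 and 0.0522 without control replicate 3.

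Mycl, which encodes L-Myc, a paralog with a weaker activating domain, moved the other way. It had 14.4, 14.2 and 13.1 TPM in DSS organoids and 7.79, 8.28 and 8.15 TPM in control organoids, so that the groups were each tight and clearly apart. In DSS it was thus higher by 0.72 in log2 (SE 0.11, adjusted p = 0.0167 with limma). This call was lost without DSS replicate 3 (adjusted p = 0.0683), control replicate 1 (0.0729), control replicate 2 (0.0972) or control replicate 3 (0.0706), with the fold change between 0.60 and 0.78 throughout. As a share of the Myc level, Mycl was 30.5%, 42.8% and 48.4% in DSS organoids, against 7.80%, 6.78% and 6.30% in control organoids. Mycl nevertheless remained below Myc in every library.

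The 100 bases before the Mycl start (GRCm38.p6, chr4:122995831-122995930, plus strand) are shown because Mycl was the Myc family gene that was higher in DSS. Among the 8 members with a matched promoter, which leave out Myc and Pvt1, it was also the only one with TATAAA, in capitals here. TATAAA was searched on both strands and occurred in 9.03% of promoters of tested genes.
Mycl: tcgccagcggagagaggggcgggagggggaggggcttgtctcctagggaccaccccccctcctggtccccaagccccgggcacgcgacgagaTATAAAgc
The letters lie close to the annotated start, and no use of them was measured.

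Mycn, the family member of embryonic and neural tissue, had 0.08, 0 and 0.10 TPM in DSS organoids and 0, 0.05 and 0 TPM in control organoids. It was thus at the bottom of the table in both groups, and a difference could not be seen (exact two-sided permutation test, p = 0.4, with 0.1 the smallest value that 3 against 3 mice allow). The Myc family in these organoids was therefore almost wholly Myc and Mycl. Its summed level was 61.9, 47.3 and 40.3 TPM in DSS organoids and 108, 131 and 137 TPM in control organoids.

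Pvt1 had 1.2, 1.03 and 1.3 TPM in DSS organoids, against 3.74, 3.00 and 2.94 TPM in control organoids. The DSS libraries were all below the control libraries, at 1.18 ± 0.137 TPM against 3.23 ± 0.446 TPM (SD, n = 3 each). This was a difference of -0.95 in log2 (SE 0.17, adjusted p = 0.0236 with limma), and with a pseudocount of 0.1 in place of 1 it was -1.38. The adjusted p was above 0.05 without DSS replicate 3 (0.0843), control replicate 1 (0.0939), control replicate 2 (0.114) or control replicate 3 (0.0809), with the fold change between -1.002 and -0.869 when 1 library was left out. Pvt1 is a low transcript here, at the 9.28 percentile of mean TPM among tested genes, while Myc is at the 83.3 percentile. The ratio of Myc to Pvt1 was 39.5, 32.2 and 20.8 in DSS organoids and 26.7, 40.7 and 44.0 in control organoids. These ratios overlapped, so both genes were lower in DSS by shares that these libraries did not separate.

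The genes directly around Myc and Pvt1 in the RefSeq order were mostly low or silent. Lratd2, the nearest expressed protein gene on the Myc side, had 23.0, 49.8 and 47.6 TPM in DSS organoids and 43.6, 43.4 and 49.4 TPM in control organoids, and the log2 fold change of -0.25 did not pass the test (limma, SE 0.29, adjusted p = 0.603). Only DSS replicate 1 stood below the control range. Beyond Pvt1 the next genes above 1 TPM were the gasdermin C genes, which encode pore-forming proteins of the gut epithelium. Gsdmc2 had 6.03, 7.05 and 8.46 TPM in DSS organoids, against 29.0, 16.9 and 18.7 TPM in control organoids (log2 fold change -1.44, SE 0.22, adjusted p = 0.0173 with limma). Gsdmc3 was lower as well (-1.62, SE 0.32, limma adjusted p = 0.0298), and Gsdmc4 was at -0.70 (adjusted p = 0.249). The gasdermin C genes are near-identical copies among which reads are shared by estimation, so the value of each single copy is uncertain. The calls of Gsdmc2 and Gsdmc3 were lost without DSS replicate 3 and without each control library, and that of Gsdmc3 also with no filter. A list written by name over a wider stretch of the chromosome had 10 tested genes, of which these 2 were lower in DSS and none was higher (limma, 3 lower and 0 higher at an unadjusted p below 0.05), against 3.89% lower over all tested genes. In it Trib1, a pseudokinase gene, had 12.3, 33.9 and 20.1 TPM in DSS organoids and 33.7, 41.9 and 46.6 TPM in control organoids, and did not pass at -0.95 (limma adjusted p = 0.119).

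**Figure D2:**
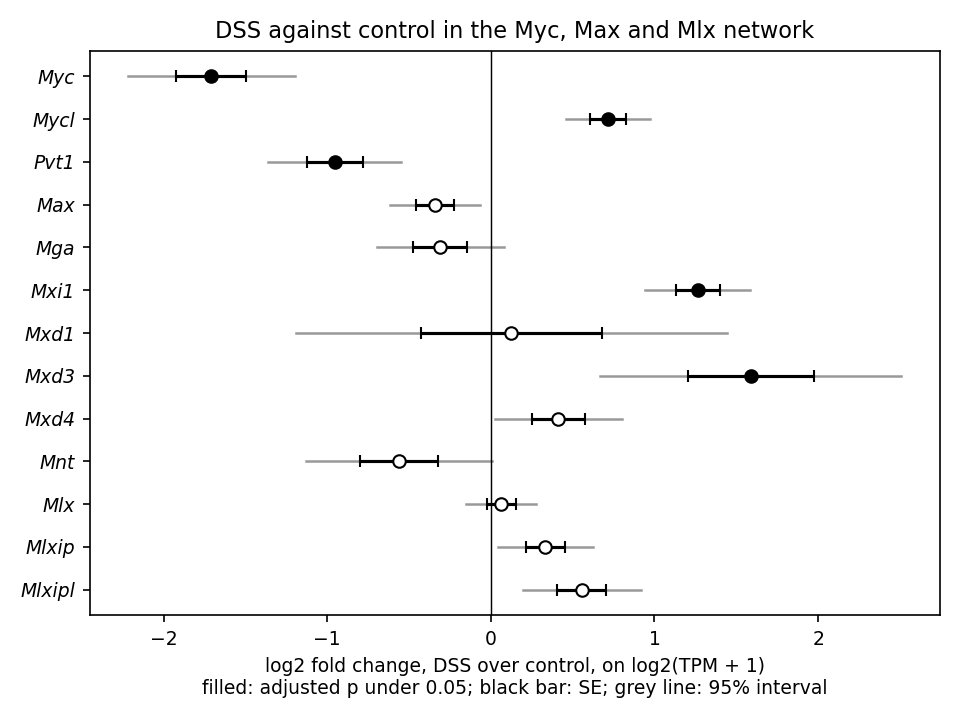
Log2 fold change of DSS over control organoids for the tested members and for Mga, Mxd3, Mlxip and Mlxipl, from lower to higher along the x axis, with the SE as a black bar and the 95% interval as a grey line. Filled points passed an adjusted p of 0.05: Myc and Pvt1 on the lower side, and Mxi1, Mycl and Mxd3 on the higher side.

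Max, the shared partner, had 105, 85.0 and 95.4 TPM in DSS organoids and 129, 122 and 112 TPM in control organoids. The groups did not overlap, but the log2 fold change was small at -0.34 and did not pass the test (SE 0.12, limma adjusted p = 0.106). It passed only without DSS replicate 1, at -0.42 with an adjusted p of 0.0336. Max was thus far less changed in size than Myc. The ratio of Max to the Myc family was 1.70, 1.80 and 2.37 in DSS organoids and 1.202, 0.931 and 0.811 in control organoids, which do not overlap. Set against the sum of the Myc family and its competitors, Max was at 0.689, 0.411 and 0.538 in DSS organoids and 0.655, 0.549 and 0.503 in control organoids, which do overlap.

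Mxi1, a repressor of the Mxd family that competes with Myc for Max, was the member with the smallest adjusted p. It had 41.7, 52.0 and 46.3 TPM in DSS organoids, against 20.6, 19.5 and 16.4 TPM in control organoids. The lowest DSS library was about 2 times the highest control library. The log2 fold change was 1.26 (SE 0.13, limma adjusted p = 0.00731), and it lay between 1.17 and 1.34 over the 11 alternatives. The call was lost only without control replicate 2, at an adjusted p of 0.0531.

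Mxd1, the repressor tied to terminal differentiation, varied far more between DSS mice than between control mice. It had 13.4, 71.1 and 50.2 TPM in DSS organoids and 29.7, 35.3 and 35.7 TPM in control organoids. DSS replicate 1 was thus below and DSS replicates 2 and 3 above the control libraries. Over all libraries its log2 fold change was 0.13 (SE 0.55, limma adjusted p = 0.904, 95% interval -1.19 to 1.44), an interval wide enough to hold a change of either sign. Without DSS replicate 1 it was 0.82 with an adjusted p of 0.0233, and without DSS replicate 2 it was -0.34 with an adjusted p of 0.67.

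Krt20, a keratin of surface colonocytes, followed the same order among the DSS libraries. It had 17.1, 248 and 166 TPM in DSS organoids and 93.6, 118 and 90.0 TPM in control organoids. Mki67, a marker of cycling cells, followed the opposite order, with 58.1, 22.6 and 46.7 TPM in DSS organoids, against 10.3, 11.5 and 13.1 TPM in control organoids. Other genes of the 13 tested for colonocyte differentiation did not all share the order of Krt20. Slc26a3 had 339, 225 and 305 TPM in DSS organoids and 219, 210 and 191 TPM in control organoids. Guca2a was the only gene of this list called, and it was higher (1.74, SE 0.33, limma adjusted p = 0.0265). It had 618, 418 and 939 TPM in DSS organoids and 210, 231 and 133 TPM in control organoids. This 1 call is 7.69% of the list, against 6.45% of all tested genes. The part of these differences between DSS libraries in the Mxd1 values was not tested.

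Mxd4, a further repressor of the family, had 29.2, 23.4 and 27.8 TPM in DSS organoids and 23.6, 20.1 and 16.3 TPM in control organoids. The groups overlapped by 1 library, and the log2 fold change of 0.41 did not pass the test (SE 0.16, limma adjusted p = 0.151). Mnt, the most widely made competitor of Myc, had 6.74, 13.2 and 12.7 TPM in DSS organoids and 15.8, 15.9 and 16.0 TPM in control organoids. The control libraries lay close together and all DSS libraries below them, with DSS replicate 1 lowest. At -0.56, the log2 fold change did not pass the test (SE 0.24, limma adjusted p = 0.173). Mnt and Mxd4 passed under none of the 11 alternatives.

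**Figure D3:**
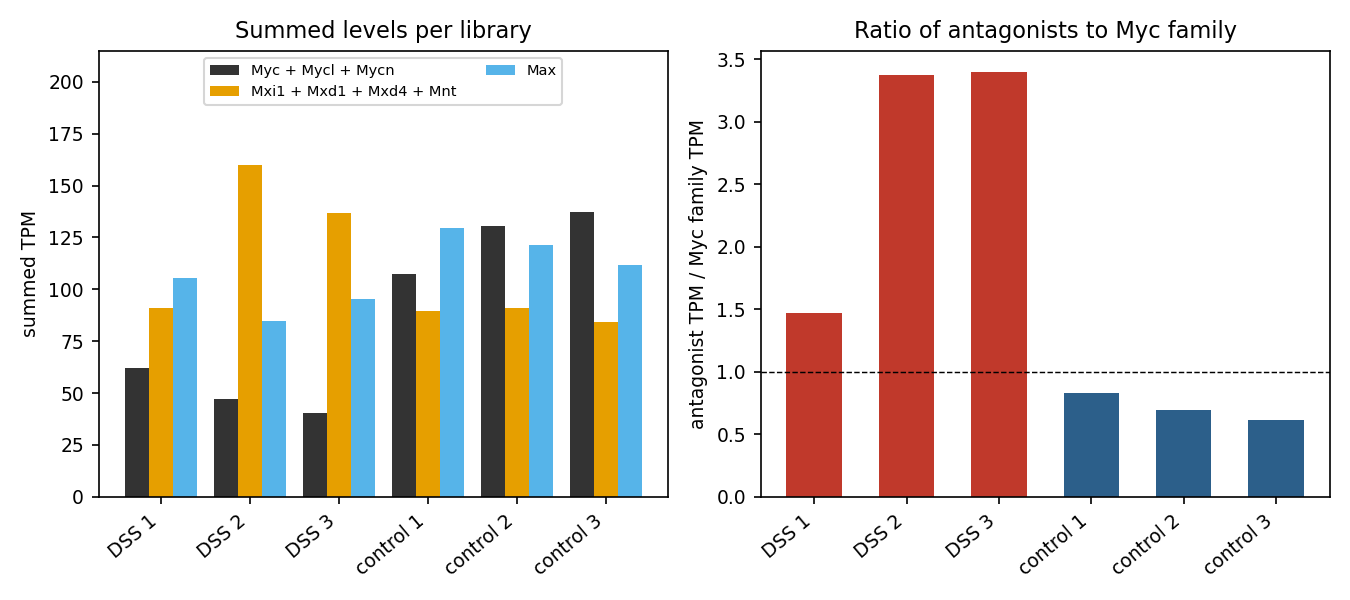
Summed TPM of the Myc family, of the competitors Mxi1, Mxd1, Mxd4 and Mnt, and of Max in each library (left), and the ratio of competitors to Myc family per library (right), with DSS libraries before control libraries and a dashed line at equal levels. The ratio was above 1 in the 3 DSS libraries and below 1 in the 3 control libraries.

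Summed, Mxi1, Mxd1, Mxd4 and Mnt made 91.0, 160 and 137 TPM in DSS organoids, against 89.8, 90.9 and 84.4 TPM in control organoids. The ratio of these competitors to the Myc family was 1.47, 3.38 and 3.40 in DSS organoids and 0.834, 0.696 and 0.614 in control organoids. Transcripts of the competitors thus outnumbered those of the Myc family in every DSS library and in no control library. In DSS replicate 1 the competitor sum was near the control range, and the ratio differed there mainly through its lower Myc. Mxi1 made up 45.8%, 32.6% and 33.8% of the competitor sum in DSS organoids and 23.0%, 21.5% and 19.4% in control organoids. These are ratios of RNA and say nothing of protein, and no test was run on them because they combine genes chosen with results known.

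Mlx, which pairs with the glucose-sensing factors Mlxip and Mlxipl as well as with Mxd proteins, had 146, 142 and 134 TPM in DSS organoids and 142, 127 and 135 TPM in control organoids. The groups overlapped. Its log2 fold change was 0.06 (SE 0.09, limma adjusted p = 0.677), with a 95% interval of -0.15 to 0.28. It was the most abundant member in both groups.

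Ordered by mean TPM, DSS organoids had Mlx, Max, Mxi1, Mxd1, Myc, Mxd4, Mycl, Mnt, Pvt1 and Mycn. The ranges of Mxi1 and Mxd1, of Mxd1 and Myc, of Myc and Mxd4, and of Mycl and Mnt overlapped, so these neighbours were not separated. In control organoids the order was Mlx, Max, Myc, Mxd1, Mxd4, Mxi1, Mnt, Mycl, Pvt1 and Mycn. There the ranges of Mlx and Max, of Max and Myc, and of Mxd4 and Mxi1 overlapped. Myc was therefore among the top 3 members in control organoids, with a range that overlapped that of Max, and its range in DSS organoids overlapped those of the repressors Mxd1 and Mxd4.

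Of the 4 network genes that are not among the 10, only Mxd3, a repressor of the family made in cycling cells, passed the test. It had 8.75, 2.22 and 4.86 TPM in DSS organoids, against 1.02, 0.83 and 0.83 TPM in control organoids. Mxd3 was higher by 1.59 in log2 (limma, SE 0.39, adjusted p = 0.0484), just inside the threshold, and it entered the test only through the DSS libraries, since its control mean was 0.893 TPM. The call was lost without DSS replicate 3 and without each control library (adjusted p up to 0.166), and also with no filter (0.0918), median-ratio scaling (0.0551) and quantile normalization (0.058). DSS replicate 1 was highest for Mxd3, as it was for Mki67. Mlxipl, which encodes the glucose sensor ChREBP, was at 0.56 (limma adjusted p = 0.0644), Mlxip at 0.33 (0.126) and Mga at -0.31 (0.256), and none of these passed.

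Known Myc target genes are given by function, from lists written by role. Genes of the nucleolus and ribosome building were lower in DSS in 18 of the 34 tested, and none was higher (limma, 25 lower and 0 higher at an unadjusted p below 0.05), where 3.89% of all tested genes were lower. The list median was -0.47, against 0.05 over all tested genes. Ncl, which encodes nucleolin, had 291, 295 and 285 TPM in DSS organoids, against 486, 511 and 507 TPM in control organoids (log2 fold change -0.79 with an SE of 0.08, limma adjusted p = 0.00653). Its libraries were tight in both groups and far apart. Mybbp1a, a nucleolar protein of ribosomal RNA processing, had 67.9, 69.9 and 79.5 TPM in DSS organoids and 123, 130 and 131 TPM in control organoids (log2 fold change -0.81, SE 0.10, adjusted p = 0.0106 with limma). Rrs1, a ribosome assembly factor, was at -0.73 (limma adjusted p = 0.0114), and Polr1a, the largest subunit of RNA polymerase I, at -0.68 (limma adjusted p = 0.0163). Both were lower in all DSS libraries than in any control library.

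The number of calls in this list moved with single libraries more than its median did. Without DSS replicate 3 the number was 2, without control replicate 1 it was 1, without control replicate 2 it was 0 and without control replicate 3 it was 1. The median lay between -0.53 and -0.41 over the alternatives, and 31 of the 34 fold changes were negative. Of the exceptions, Tcof1, which encodes treacle, had the largest positive value at 0.38 (limma adjusted p = 0.285). The E-box was held by 6 of 28 matched promoters of this list, or 21.4%, against 12.1% over tested genes. Among them it was held by 2 of the 15 matched promoters of genes lower in DSS and by 4 of the 13 matched promoters of genes that did not pass.

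**Figure D4:**
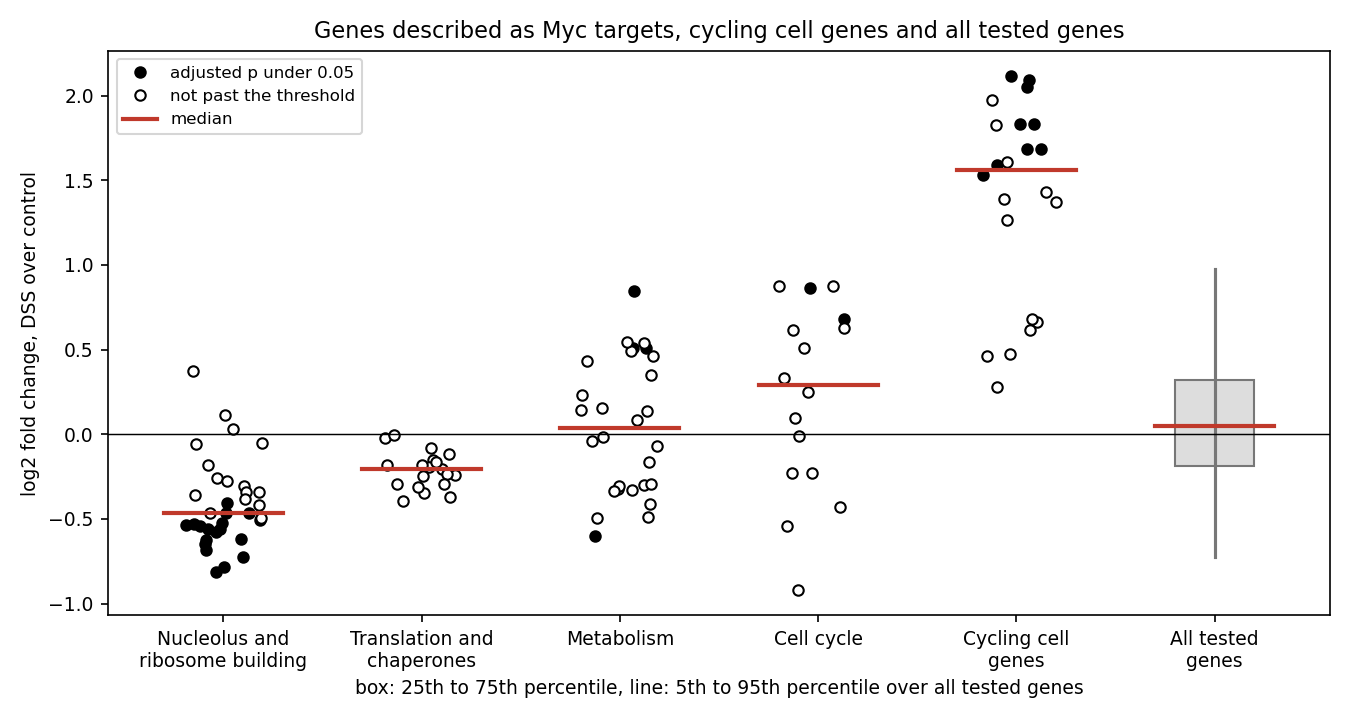
Log2 fold change of DSS over control organoids for each tested gene of 4 lists of known Myc targets and of the cycling cell genes, with filled points past an adjusted p of 0.05, a red line at the list median, and percentiles over all tested genes at the right. The list medians were -0.47 for the nucleolus and ribosome building, -0.20 for translation and chaperones, 0.04 for metabolism, 0.29 for the cell cycle and 1.56 for cycling cell genes.

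Genes of translation and protein folding lay slightly below 0, and none of 19 passed the test (limma, 7 lower and 0 higher at an unadjusted p below 0.05). All 19 fold changes were negative, with a median of -0.20, from -0.39 for the mitochondrial chaperonin gene Hspe1 (limma adjusted p = 0.076) to just below 0 for the prohibitin gene Phb2, which turned above 0 without DSS replicate 2 and without control replicate 3. Without DSS replicate 1, 8 of them were called lower. The E-box was held by 8 of their 17 matched promoters.

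Target genes of metabolism did not share a direction. Of 28 tested, 3 were higher and 1 was lower, with a median of 0.04 (limma, 7 higher and 3 lower at an unadjusted p below 0.05). These calls are 10.7% and 3.57% of the list, near the 6.45% and 3.89% of all tested genes. Ldha, which encodes lactate dehydrogenase A, had 3604, 3659 and 3464 TPM in DSS organoids, against 1862, 2104 and 2006 TPM in control organoids (log2 fold change 0.85, SE 0.08, adjusted p = 0.00653 with limma). The glycolytic enzyme gene Pkm (0.51, limma adjusted p = 0.0478) and the transferrin receptor gene Tfrc (0.51, limma adjusted p = 0.0454) were also higher. Srm, which encodes spermidine synthase, had 78.3, 61.3 and 74.2 TPM in DSS organoids, against 108, 106 and 110.2 TPM in control organoids, and was lower (-0.60, SE 0.12, limma adjusted p = 0.0281). Thus Ldha and Srm, both known Myc targets, changed in opposite directions in the same libraries. The calls of Pkm, Tfrc and Srm were each lost without DSS replicate 3 and without each control library, those of Pkm and Tfrc also with no filter and with median-ratio scaling, and that of Tfrc with quantile normalization.

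Cell cycle genes known as Myc targets lay on both sides of 0. Of the 16, 2 were higher and none was lower (limma, 4 higher and 3 lower at an unadjusted p below 0.05). The higher ones are 12.5% of the list, against 6.45% of all tested genes. They were Tfap4, which encodes the transcription factor AP4, at 0.86 and the phosphatase gene Cdc25a at 0.68 (limma adjusted p = 0.0252 and 0.0344). The median of the 16 was 0.29, and it was -0.07 without DSS replicate 1. The cyclin genes Ccnd1 and Ccnd2 and the chromatin gene Hmga1 had lower values in all DSS libraries than in any control library but did not pass, at -0.92, -0.43 and -0.54 (limma adjusted p = 0.085, 0.0677 and 0.085). Ccnd1 had 103, 55.8 and 79.2 TPM in DSS organoids and 196, 145 and 110.2 TPM in control organoids. Against these 3 genes, 4 of the 16 were higher in all DSS libraries than in any control library. They were Tfap4, Cdc25a, E2f2 and Cks2. E2f2 and Cks2 did not pass, at 0.63 and 0.87 (limma adjusted p = 0.054 and 0.0554). Over all tested genes, the groups did not overlap for 15.3% on the lower side and 21.1% on the higher side. Under median-ratio scaling and under quantile normalization, 1 gene of this list was called lower. Of 22 genes that mark cycling cells, 9 were higher and none was lower, with a median of 1.56. The higher ones are 40.9% of the list, against 6.45% of all tested genes. Mki67 was higher at 1.69 (SE 0.33, limma adjusted p = 0.0289), with DSS replicate 1 highest, and Cdc20, Ccnb2 and Bub1b, genes of mitosis, were higher at 2.05, 2.09 and 1.83. None of the 22 passed without DSS replicate 3 or without any 1 control library, and 21 passed without DSS replicate 2. The replication genes of this list, Mcm2, Mcm3, Mcm6, Rrm1, Rrm2, Tyms and Pcna, overlapped between the groups and did not pass. Mcm3 had 50.5, 7.08 and 21.0 TPM in DSS organoids and 11.7, 12.8 and 12.0 TPM in control organoids. DSS organoids therefore had lower Myc beside higher transcripts of Mki67 and of the named mitosis genes. The summed transcripts of the cycling cell list were highest in the library where Myc was highest among the DSS libraries.

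Genes known to be repressed through Myc did not move as a group. Of 13 tested, 3 were higher and 2 were lower, with a median of 0.07 (limma, 4 higher and 3 lower at an unadjusted p below 0.05). These calls are 23.1% and 15.4% of the list, against 6.45% and 3.89% of all tested genes. Cdkn1b, which encodes the cell cycle inhibitor p27, had 35.6, 39.6 and 27.9 TPM in DSS organoids, against 18.4, 19.2 and 21.7 TPM in control organoids (log2 fold change 0.76, SE 0.15, adjusted p = 0.0309 with limma). Cebpa, a differentiation factor, was higher at 0.72 (limma adjusted p = 0.0127), and so was the inhibitor gene Cdkn2c at 1.66 (limma adjusted p = 0.0419). Cdkn2c had 26.9, 8.20 and 17.1 TPM in DSS organoids and 4.08, 3.90 and 4.88 TPM in control organoids. Cdkn1a, a further inhibitor gene, had 130, 559 and 315 TPM in DSS organoids and 704, 656.5 and 585 TPM in control organoids. It was lower in all DSS libraries but did not pass, at -1.18 (SE 0.48, limma adjusted p = 0.157). Gadd45b, a stress response gene, had 22.9, 28.3 and 16.4 TPM in DSS organoids, against 56.9, 74.97 and 74.6 TPM in control organoids, and was lower at -1.59 (SE 0.21, limma adjusted p = 0.0127). Txnip, which is known both as repressed by Myc and as activated by Mlx complexes, was lower at -0.58 (limma adjusted p = 0.0375). Among the 9 glucose-sensing targets of Mlx, Txnip was the lower one and the ketohexokinase gene Khk the higher one (0.72, limma adjusted p = 0.0233). Each is 11.1% of that list, against 3.89% lower and 6.45% higher over all tested genes.

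Genes that act upstream of Myc or with it showed few calls. Of 13 tested genes of Wnt input, Bcl9 and Bcl9l, coactivators of beta-catenin, were higher at 0.67 and 0.64 (limma adjusted p = 0.0348 and 0.0427), and the list median was -0.06. They are 15.4% of the list, against 6.45% of all tested genes. Of 16 genes of Myc protein turnover, only Aurka, a mitotic kinase that also steadies Myc proteins, was higher (1.64, limma adjusted p = 0.0412). That is 6.25% of the list, near the share over all tested genes. Aurka had 58.9, 20.1 and 39.1 TPM in DSS organoids, against 8.78, 11.1 and 13.2 TPM in control organoids, the same order among DSS libraries as Mki67. None of the 14 Myc cofactors passed (limma, 2 lower and 0 higher at an unadjusted p below 0.05), from -0.46 for the elongation factor gene Ccnt1 to 0.32 for Actl6a. None of the 11 Mxd corepressors passed (3 higher and 0 lower at an unadjusted p below 0.05), from -0.24 for Sin3b to 0.65 for Sap30. Calls in these lists depended on the setting. Of 23 genes named by the smallest p in the lists of the network, its inputs and its targets, a count that leaves out Cdkn2c and the gasdermin genes, 23 were called without DSS replicate 1 or without DSS replicate 2. The number was 4 without DSS replicate 3, 3 without control replicate 1, 0 without control replicate 2 and 2, Ldha and Ncl, without control replicate 3. It was 11 with no filter on low values, where Bcl9, Bcl9l, Aurka, Txnip, Cdkn1b, Cdc25a, Mki67, Ccnb2 and Bub1b were among those lost, 20 with median-ratio scaling and 19 with quantile normalization.

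To place the pattern of Myc, tested genes with a mean of at least 5 TPM were ranked by the root mean square difference of their centred log2(TPM + 1) profiles from it over the 6 libraries. The nearest of 8938 candidates were the DNA repair gene Mgmt (0.205), the secreted protein gene Wfdc2 (0.222), Gadd45b (0.241), the cytokine gene Lif (0.245) and Rgcc (0.286). Lif had 3.93, 4.84 and 3.13 TPM in DSS organoids, against 10.4, 15.04 and 16.9 TPM in control organoids. For Pvt1 the nearest of 8939 were Rnf208 (0.0512), the actin-severing gene Gsn (0.079), Rnf169 (0.0875), the importin gene Ipo4 (0.0887) and Cd3eap (0.092), which encodes a subunit of RNA polymerase I. Myc was not among the 5 nearest to Pvt1. Pvt1 itself, with a mean below 5 TPM, was not a candidate for Myc. These genes were chosen for their likeness over the same 6 libraries, so their values are a description.

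**Figure D5:**
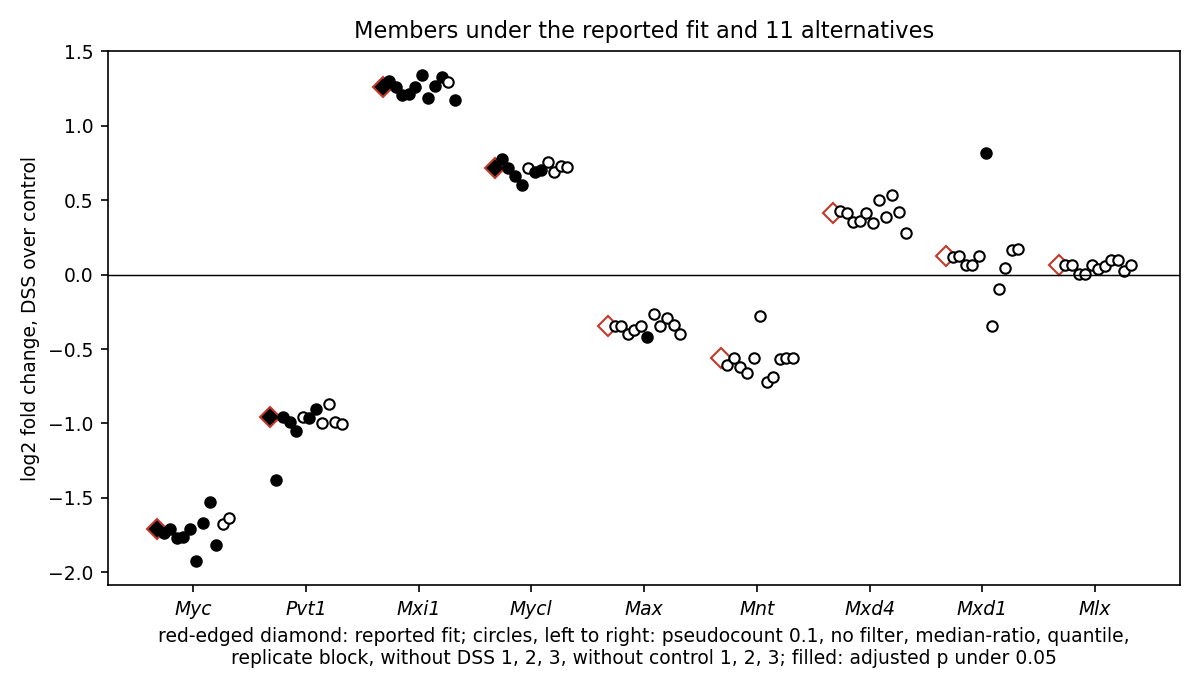
Log2 fold change of DSS over control organoids for the 9 tested members as reported (diamonds) and under 11 alternatives (circles), with filled symbols past an adjusted p of 0.05. Myc, Pvt1, Max and Mnt stayed below 0 and Mxi1, Mycl, Mxd4 and Mlx above it in each alternative, while Mxd1 lay between -0.34 and 0.82.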

How the data were processed

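The library kit was NEBNext Ultra II RNA, with strand not stated. The authors deposited 1 table of TPM values per gene for the 6 libraries. For its making, the submitters' notes list cutadapt 3.5 and Trim Galore 0.6.7, STAR 2.7.7a and 2.7.10a, RSEM 1.3.1 and build GRCm39. RSEM shares reads among near-identical copies by estimation. Deposited TPM sums to 1000000 in each library within rounding, so depth is unknown and no counting interval is given. Promoters are of another build, GRCm38.p6, and were matched by symbol.

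In R 4.3.3, TPM was put on the log2(TPM + 1) scale. Genes with a mean of at least 1 TPM were compared with limma 3.58.1 (trend, two-sided, Benjamini-Hochberg over all tested genes, threshold 0.05, no covariate), which was tested on simulated data. Errors of means are SDs over 3 mice a group, and the SE is the moderated one. Every member is named. Of each other list, up to 4 genes with the smallest p past the threshold are named, or the lowest and highest where none passed, with neighbours of Myc and Pvt1 and the 5 genes nearest in profile to each. In the stromal list only Pdgfrb was tested, and it did not pass. Krt20, Tcof1, Cdkn2c, Cdkn1a, Ccnd1, Ccnd2, Hmga1, E2f2, Cks2, Mga, Mlxip and Mlxipl were chosen after their values were seen. So were Slc26a3, Mrc1, Cd14, Mcm2, Mcm3, Mcm6, Rrm1, Rrm2, Tyms and Pcna. The members and lists were chosen with earlier results of these data known. Libraries of 1 group were each from a separate mouse. Alternatives were a pseudocount of 0.1, no filter, median-ratio scaling, quantile normalization, a replicate block and leaving out each library.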

Additional observations from a re-analysis of the deposited data

How the results depend on the processing

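The direction of Myc, Pvt1, Mycl, Mxi1, Max, Mnt, Mxd4 and Mlx held under all 11 alternatives. Mxd1 ranged from -0.344 to 0.818 when 1 library was left out, below 0 where that was DSS replicate 2 or 3 (-0.097), and Phb2 from -0.057 to 0.051, above 0 where it was DSS replicate 2 or control replicate 3 (0.002). Leaving out 1 library gave 44 to 2515 genes called (1204 as reported), 29 to 1693 higher, 15 to 822 lower and 0 to 6 members called (4 as reported), with Myc from -1.924 to -1.53 and Pvt1 from -1.002 to -0.869. The fewest calls were without control replicate 2 and the most without DSS replicate 1, with 1888 without DSS replicate 2, 103 without DSS replicate 3, 140 without control replicate 1 and 148 without control replicate 3. Of the 2515 calls, 1183 were among the 1204. With no filter, 20126 genes were tested and 759 called, 456 of them higher.

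DSS and control replicates with the same number deviated together at correlations of 0.2, 0.031 and 0.035. Those with different numbers did so at -0.18 to 0.152. With 3 libraries a group, these values cannot tell whether the numbers mark pairs. With the replicate numbers as a block, 531 genes were called, 346 higher and 185 lower, and 2 members, Myc and Mxi1. Pvt1 was at -0.954 (limma adjusted p = 0.0615) and Mycl at an adjusted p of 0.0551, and 3 genes of the nucleolus and ribosome building were lower. Of the 23 named genes of the other lists, 10 were called with the block, and the losses include Mxd3, Polr1a, Srm, Pkm and Tfrc. TPM keeps no depth, so how far depth limits Pvt1 and Mycn is unknown. With control age not listed, a difference in age could not be checked. The cause of these changes between settings was not tested.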
